A study of Mus musculus with 6 samples.

Results

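Receptors for oxytocin, acetylcholine, noradrenaline and vasoactive intestinal peptide (VIP) were examined in cultured myoepithelial cells of the mouse lacrimal gland. The list held 10 genes: Oxtr, Chrm1 to Chrm4, Adra1a, Adra1b, Adra1d, Vipr1 and Vipr2. Each was taken from the series' value table where a probe set (the probes that report 1 transcript) carried that symbol and no other, and the brightest probe set stood for a gene. This gave 8 of the 10 genes, among 22180 genes named in the same way, and Adra1a and Adra1d were not analysed here.

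Total RNA was measured on 6 Affymetrix arrays, 3 from TSP1 null mice, whose background strain and targeted exons the labels do not state, and 3 from wild-type C57BL/6J mice. TSP1 is thrombospondin-1, encoded by Thbs1, and the null mouse serves in the series as a model of dry eye disease. All mice were female and their ages are not given. In both groups the exorbital glands were digested with collagenase and the cells grown untreated in medium with serum for about 2 to 3 weeks, so cells of the gland other than myoepithelial cells could also persist. The labels call the arrays biological replicates but do not say whether each came from its own animal or culture, and a p-value here reflects only how much these arrays vary, which may be technical.

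Myoepithelial cells wrap the acini and ducts of the gland and contract to push tears out. Oxytocin and acetylcholine act on them through receptors that couple to the G protein Gq, phospholipase C and calcium, as do noradrenaline and the alpha1 adrenergic receptors. VIP, which is released by parasympathetic nerves together with acetylcholine, acts through receptors that couple to Gs and raise cyclic AMP. The comparison asked how the receptor transcripts of cells from the dry eye model differ from those of cells from healthy mice.

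The arrays carried the contractile markers of the labelled cell type but only part of its basal epithelial markers. Acta2 (smooth muscle actin) had log2 signals from 13.85 to 14.01, Cnn1 (calponin) from 11.64 to 12.22 and Myh11 (smooth muscle myosin) from 8.35 to 9.58. Trp63, the transcription factor of basal epithelium, exceeded background on 0 arrays, with signals from 4.47 to 4.93, and the basal keratin gene Krt14 on 5. Krt5 was not analysed here. Fibroblast markers were above background on all arrays for 8 of 8 genes and macrophage markers for 11 of 12, while acinar markers were for 2 of 9 and lymphocyte markers for 1 of 7. Thbs1 itself had signals of 12.73, 13.03 and 13.00 on the null arrays and 13.51, 13.75 and 13.54 on the wild-type arrays. The null arrays were all lower but still far above background, and whether the probes lie in the deleted part is not known. RNA came from whole cultures, so fewer cells of a type and less RNA per cell cannot be told apart.

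Background was read from the 1105 olfactory receptor genes on the array, which gland cells are not expected to use. A gene counted as above background on an array where its signal exceeded the 95th percentile of those genes, a level between 5.04 and 5.20. By this measure 4 of the 8 receptor genes stood above background on all 6 arrays, namely Oxtr, Chrm1, Adra1b and Vipr2. Of all 22180 genes 56.8% did. Vipr1 exceeded the level on 1 array, as 9.56% of all genes did on 1 to 5, and Chrm2, Chrm3 and Chrm4 exceeded it on 0, as did 33.7% of all genes. Probe sets differ in how strongly they bind, so each gene is set against background and not against the other receptors.

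The count depended on the level chosen. With the 99th percentile, between 6.04 and 6.20, 0 of the 8 genes stayed above on all arrays, and with the 95th percentile of 285 vomeronasal receptor genes 2 did, Chrm1 and Adra1b. The 90th percentile gave 5 genes by adding Vipr1. The share of all genes above these other levels was not computed, so these counts cannot be set against it.

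**Figure D1:**
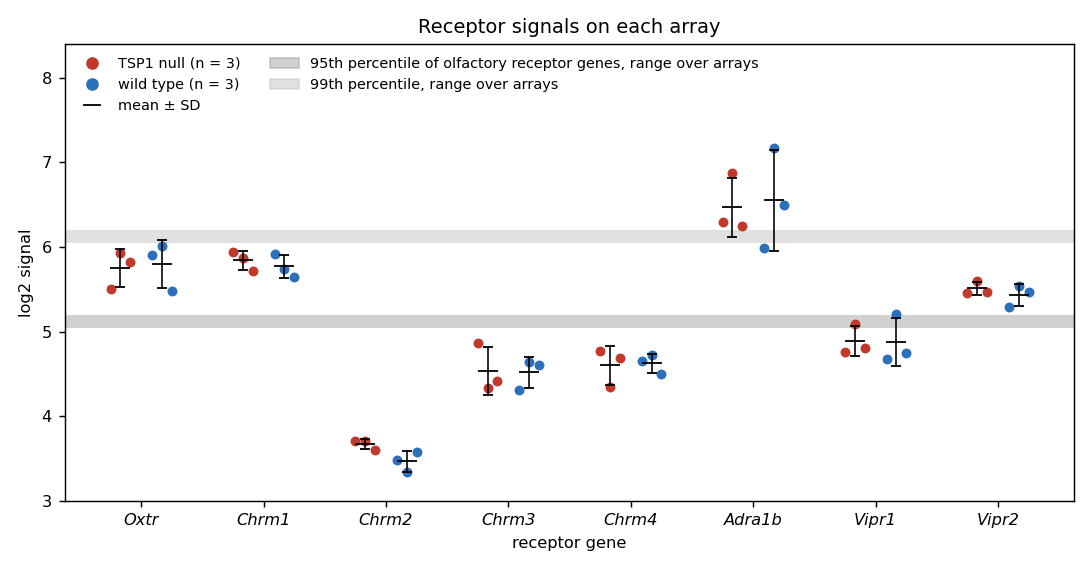
Log2 signal (vertical axis) of the 8 receptor genes (horizontal axis) on each array, with red points for the 3 TSP1 null and blue points for the 3 wild-type arrays and black bars for mean and SD. The darker band is the background level between 5.04 and 5.20 and the paler band the 99th percentile between 6.04 and 6.20. Oxtr, Chrm1, Adra1b and Vipr2 lie above the darker band on all arrays, Chrm2 lies far under it, and red and blue points intermingle in every gene except Chrm2.

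No receptor gene passed the test for a difference between the groups. With limma 0 of the 8 genes passed an adjusted p of 0.05, where 0 of all 22180 genes (0%) passed. At an unadjusted p under 0.05 there were 0 of the 8 and 2341 of all genes (10.6%). An ordinary linear model likewise gave 0 of the 8 at either level, where 0 of all genes passed the adjusted and 1904 the unadjusted level. The median difference of the 8 genes, TSP1 null minus wild type, was 0.015 on the log2 scale against 0.022 for all genes, with 5 positive and 3 negative. Signals of the 2 groups did not overlap for 1 of the 8 genes, Chrm2, against 15.8% of all genes in either direction. Chrm2 was higher in the null group, as 10.1% of all genes were without overlap.

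**Figure D2:**
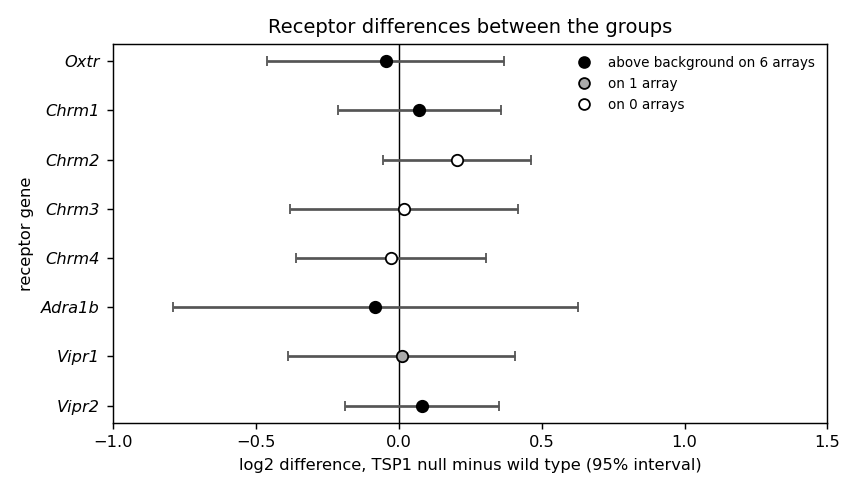
Log2 difference, TSP1 null minus wild type (horizontal axis), for each receptor gene (vertical axis), with limma's 95% intervals from 3 arrays per group. Filled points are genes above background on 6 arrays, the grey point is Vipr1 (1 array) and open points are genes on 0 arrays. All 8 intervals include 0, and that of Adra1b, from -0.79 to 0.63, is the widest.

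Oxtr encodes the oxytocin receptor, through which oxytocin makes myoepithelial cells contract in the mammary and lacrimal glands. Its log2 signals were 5.51, 5.93 and 5.82 on the null arrays and 5.90, 6.02 and 5.48 on the wild-type arrays. The lowest and the highest signal both came from wild-type arrays, so the null arrays lay inside the wild-type range. The group means were 5.75 ± 0.22 and 5.80 ± 0.28 (SD, n = 3), a difference of -0.046 (SE 0.18, adjusted p = 0.955 with limma). The 95% interval ran from -0.46 to 0.37, or from 0.727-fold to 1.29-fold. On each array the signal exceeded that of 96.7% to 98.8% of the olfactory receptor genes, by 0.38 to 0.88 over the background level.

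The promoter of Oxtr is shown because oxytocin acts on the cells through this receptor, and common core elements were sought in that promoter. These are the 250 bases before the RefSeq start (GRCm38.p6, chr6:112489826-112490075, minus strand), printed 5′ to 3′ with matches to the motifs named next in capitals.
Oxtr: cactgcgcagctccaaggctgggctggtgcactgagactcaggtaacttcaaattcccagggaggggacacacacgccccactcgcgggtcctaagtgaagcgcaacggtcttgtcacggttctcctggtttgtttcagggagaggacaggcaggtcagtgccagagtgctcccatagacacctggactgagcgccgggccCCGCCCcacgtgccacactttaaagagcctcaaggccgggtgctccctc
The capitals mark 1 GC box, CCGCCC, the reverse complement of GGGCGG, which binds Sp1-type factors. GGGCGG on either strand occurs in 32.7% of 32851 RefSeq promoters of this length. There was no TATAAA (12.4% of promoters, either strand) and no TGACG, the core of the cyclic AMP response element (17.8%).

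The muscarinic receptors bind acetylcholine, the main secretory transmitter of the gland. Chrm1 encodes the M1 receptor, which couples to Gq. Its signals were 5.94, 5.87 and 5.72 on the null arrays and 5.92, 5.74 and 5.64 on the wild-type arrays. The groups overlapped almost fully. The means were 5.84 ± 0.11 and 5.77 ± 0.14 (SD, n = 3), a difference of 0.072 (SE 0.12, 95% interval -0.21 to 0.36). Chrm1 has a second probe set with signals from 4.84 to 5.51, which exceeded background on 2 arrays and differed by -0.14. With both probe sets averaged Chrm1 still stood above background on all 6 arrays, and the difference was -0.035.

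Chrm3 encodes the M3 receptor, the Gq-coupled receptor that drives fluid and protein secretion by acinar cells. It read 4.86, 4.33 and 4.42 on the null arrays and 4.31, 4.64 and 4.61 on the wild-type arrays. Every one of these signals was under the background level, by 0.27 to 0.89, although the gene exceeded 84.1% to 92.8% of the olfactory receptor genes. The difference was 0.020 (SE 0.17, 95% interval -0.38 to 0.42). A signal at this level does not show whether the receptor is made.

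Chrm2 and Chrm4 encode the M2 and M4 receptors, which couple to Gi and lower cyclic AMP. Chrm4 read 4.77, 4.34 and 4.69 on the null and 4.65, 4.73 and 4.50 on the wild-type arrays, all under background, with a difference of -0.027 (SE 0.14). Chrm2 was the dimmest against background, at 3.71, 3.70 and 3.60 on the null arrays and 3.48, 3.34 and 3.58 on the wild-type arrays. Its groups did not overlap, and the difference of 0.20 (SE 0.11, 95% interval -0.06 to 0.46, adjusted p = 0.567 with limma) was between signals that lay 1.39 to 1.80 under the background level. It exceeded only 50.9% to 65.3% of the olfactory receptor genes. A further probe set that Chrm2 shares with the gene 9330158H04Rik gave a difference of -0.14 in the opposite direction.

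Adra1b encodes the alpha1B adrenergic receptor, a Gq-coupled receptor for noradrenaline also found in vascular smooth muscle. Its signals were 6.30, 6.87 and 6.25 on the null arrays and 5.99, 7.18 and 6.50 on the wild-type arrays. The lowest and the highest again came from wild-type arrays, and the 6 arrays spanned 1.19. The means were 6.47 ± 0.35 and 6.55 ± 0.60 (SD, n = 3), a difference of -0.081 (SE 0.30, adjusted p = 0.952 with limma), and the interval from 0.579-fold to 1.54-fold was the widest of the 8. Without the second wild-type array the difference was 0.23, and without the first wild-type array it was -0.36. The signal stood 0.79 to 2.04 over the background level and above 98.4% to 99.8% of the olfactory receptor genes.

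Vipr1 and Vipr2 encode the VPAC1 and VPAC2 receptors for VIP. Vipr2 read 5.46, 5.60 and 5.47 on the null arrays and 5.29, 5.54 and 5.47 on the wild-type arrays. It was above background on each, by 0.083 to 0.51, and differed by 0.082 (SE 0.12, 95% interval -0.19 to 0.35). Vipr1 read 4.76, 5.09 and 4.80 on the null arrays and 4.68, 5.20 and 4.75 on the wild-type arrays. The second wild-type array was the only one above background, by 0.066, and the groups differed by 0.011 (SE 0.17, 95% interval -0.39 to 0.41).

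Adra1b, Vipr1 and Vipr2 varied alike over the arrays. In each, the second null and the second wild-type array had the highest signals and the first wild-type array had the lowest. The mean of the pericyte marker list followed a similar order, at 7.48, 7.96 and 7.43 on the null arrays and 7.36, 7.84 and 7.64 on the wild-type arrays. Of its 7 genes 6 were above background on all 6 arrays. Not all members followed that order. Kcnj8 and Abcc9 were highest on the first wild-type array, at 6.16 and 6.75, and Cspg4 and Mcam on the third wild-type array. The member Rgs5 also ends receptor signalling and is counted with those genes later. Rgs5 read 5.44, 7.13 and 5.67 on the null arrays and 5.41, 7.44 and 6.10 on the wild-type arrays. The endothelial list was also highest on the second wild-type array, with means from 5.24 to 5.53 on the null arrays and from 5.44 to 6.21 on the wild-type arrays, and 2 of its 6 genes above background throughout. The Schwann cell list was highest on the second wild-type and second null arrays, at 5.76 and 5.57. It was lowest on the third null array, at 5.25, and 1 of its 4 measured genes was above background throughout. The part of these cells in the receptor signals was not tested.

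Oxtr and Chrm1 did not follow that order. Oxtr was highest on the second wild-type and second null arrays but lowest on the third wild-type array, and Chrm1 was highest on the first null and first wild-type arrays.

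**Figure D3:**
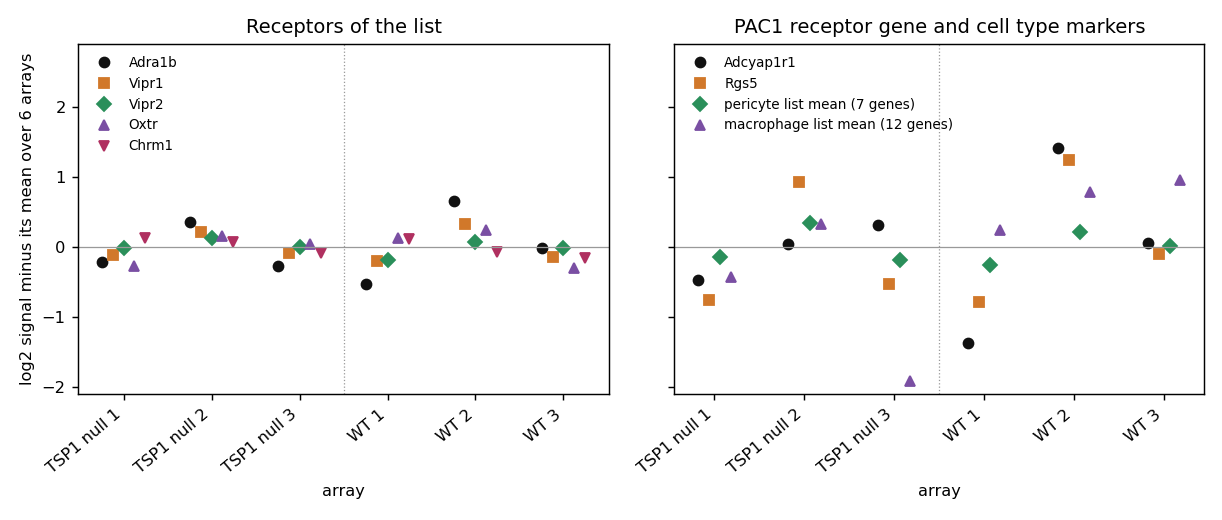
Log2 signal minus the gene's own mean over 6 arrays (vertical axis) on each array (horizontal axis; the dotted line parts null from wild type), for 5 receptor genes on the left and for Adcyap1r1, Rgs5 and the pericyte and macrophage list means on the right. Adra1b, Vipr1 and Vipr2 are highest on the second array of each group, as Rgs5 is, while the macrophage list is lowest on the third null array.

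Genes with the array profile most like each receptor were sought among the other 12590 genes above background on all 6 arrays, as a description over 6 arrays that share their normalization. The closest to Oxtr were Xkr6 (Pearson r 0.992), Klhl5 (0.981) and Gprin2 (0.979). Those for Chrm1 were Grb7 (0.999), Kcnab3 (0.979) and Rara (0.956), and those for Adra1b were Zfp385a (0.995), Tspan17 (0.990) and Camta2 (0.989). Cyp2u1 (0.999), Niban2 (0.993) and Fam160a2 (0.991) were closest to Vipr2. With 6 points and this many genes, values near 1 are to be found for almost any profile.

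Among 12 related receptor genes outside the list, 7 were measured and 2 were above background, both by a wide margin. Avpr1a encodes the vasopressin V1a receptor, a Gq-coupled relative of the oxytocin receptor that also binds oxytocin. It read 9.87, 9.97 and 10.48 on the null arrays and 10.35, 9.62 and 9.60 on the wild-type arrays, a difference of 0.24 (SE 0.24, 95% interval -0.33 to 0.81). Leaving out the first wild-type array gave 0.49, and leaving out the third null array gave 0.057. The groups overlapped, and every array lay more than 4 log2 units over the background level. Adcyap1r1 encodes PAC1, a receptor for the peptide PACAP that binds VIP weakly. It read 7.29, 7.80 and 8.08 on the null arrays and 6.39, 9.18 and 7.82 on the wild-type arrays, so that the wild-type arrays alone spanned the whole range. Its difference was -0.073 (SE 0.62), and 0.62 without the second wild-type array. Chrm5, Adra2c, Avpr1b, Avpr2 and Sctr were above background on 0 arrays.

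The largest difference among the pathway genes was that of a ligand gene, Vip. It read 5.45, 6.14 and 5.47 on the null arrays and 6.33, 8.23 and 7.65 on the wild-type arrays, with every null array lower than every wild-type array. The means were 5.69 ± 0.39 and 7.40 ± 0.97 (SD, n = 3), a difference of -1.72 (SE 0.45), or 3.29-fold lower in the null group, which did not pass over all genes (adjusted p = 0.321 with limma). The difference lay between -2.25 (without the first wild-type array) and -1.30 (without the second wild-type array) over the 15 alternatives, and its adjusted p between 0.0742 and 0.738. Of the 13 genes for ligands and their synthesis 3 were above background, Vip, Avp and Pam, and 1 of the 13, Vip, had an unadjusted p under 0.05, a share below the 10.6% of all genes. Avp, which encodes vasopressin, differed by -0.30 (SE 0.17). Pam, the enzyme that amidates oxytocin and VIP, differed by 0.27 (SE 0.12). Oxt, the oxytocin gene, was above background on 0 arrays, as were Adcyap1, which encodes PACAP, and Th, the first enzyme of noradrenaline synthesis. Chat, which makes acetylcholine, was above on 2.

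Macrophage markers also had lower signals in the null group, with list means of 8.81, 9.57 and 7.33 on the null arrays and 9.49, 10.03 and 10.19 on the wild-type arrays. Of the 12 markers 12 were lower and 0 passed over all genes. The lowest Vip signals stood on the first null array and the third null array, which also had the lowest macrophage means. The part of these cells in the Vip signal was not tested.

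The Vip promoter is shown because VIP is the ligand of Vipr1 and Vipr2 and its gene is a known target of cyclic AMP. The 250 bases before the RefSeq start (GRCm38.p6, chr10:5638968-5639217, plus strand) are printed with the same motifs in capitals.
Vip: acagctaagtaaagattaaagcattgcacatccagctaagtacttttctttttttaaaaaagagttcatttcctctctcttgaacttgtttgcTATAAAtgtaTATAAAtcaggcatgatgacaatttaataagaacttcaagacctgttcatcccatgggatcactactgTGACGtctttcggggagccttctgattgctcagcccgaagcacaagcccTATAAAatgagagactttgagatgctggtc
The core TGACG begins 79 bases before the start, and TATAAA occurs 3 times. The full element TGACGTCA, found in 1.55% of promoters, is not in this window. Promoters were at hand for 7 of the 10 receptor genes, and of these only Vipr1 held TGACG, 13 bases before its start. Of all promoters 17.8% held it. The related receptor gene Avpr1a also held TGACG, 165 bases before its start, and Adcyap1r1 did not.

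**Figure D4:**
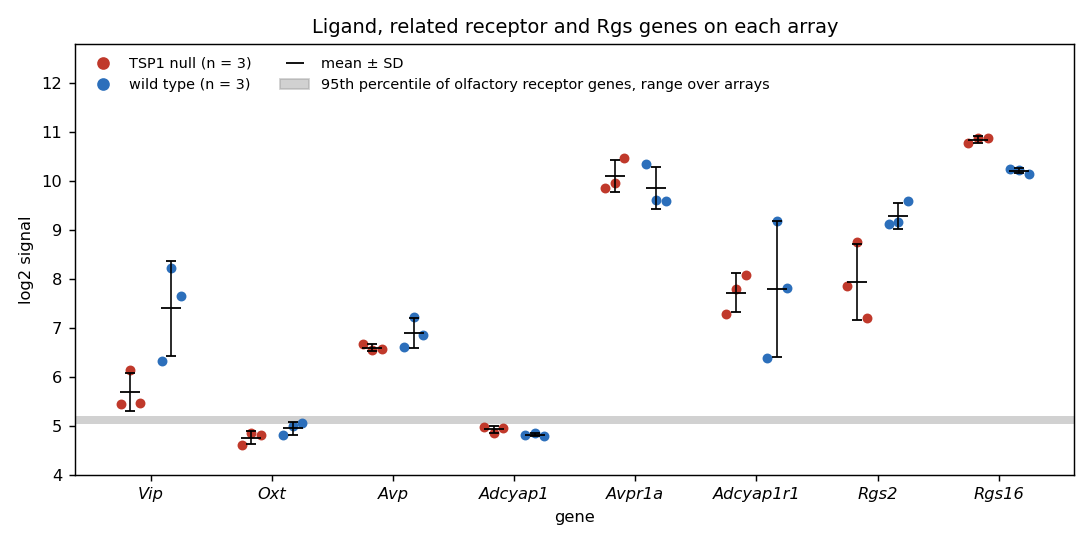
Log2 signal (vertical axis) of ligand, related receptor and Rgs genes (horizontal axis) on the 3 TSP1 null (red) and 3 wild-type (blue) arrays, with mean and SD and the background level as a grey band. Vip and Rgs2 are lower on all null arrays and Rgs16 is higher. Oxt and Adcyap1 lie under the band, except that Oxt on the third wild-type array lies inside it.

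Genes that carry the receptor signal inward were well measured. All 11 G protein alpha subunits were above background and 0 had an unadjusted p under 0.05. Gnaq and Gna11, the Gq-type subunits used by Oxtr, Chrm1 and Adra1b, differed by -0.29 (SE 0.20) and 0.35 (SE 0.17), and Gnao1, a Gi-type subunit, by 0.38 (SE 0.27). Of 7 phospholipase C beta and IP3 receptor genes 6 were measured and all 6 were above background, with 0 at an unadjusted p under 0.05. Their smallest p-values belonged to Plcb2 at -0.55 (SE 0.35), Plcb3 at 0.20 (SE 0.14) and Plcb1 at -0.29 (SE 0.23). With 1 array left out these counts reached 1: Gnaq at -0.50 and Plcb1 at -0.55 without the second null array, Gna11 at 0.47 without the second wild-type array and Plcb2 at -0.91 without the first wild-type array.

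Along the cyclic AMP arm, 18 of 19 genes were measured and 14 were above background. None passed over all genes in either direction (0 higher, 0 lower). At an unadjusted p under 0.05 6 genes were higher with TSP1 null and 1 was lower, and of all genes 6.28% were higher and 4.27% lower. The median difference was 0.10 against 0.022 for all genes. Adcy6, an adenylyl cyclase, read 8.76, 8.77 and 8.76 on the null arrays and 7.86, 8.33 and 8.16 on the wild-type arrays, a difference of 0.65 (SE 0.14, adjusted p = 0.285 with limma). The groups did not overlap. Pde3a, a phosphodiesterase that breaks down cyclic AMP, differed by 0.64 (SE 0.16) and Prkar1b, a regulatory subunit of protein kinase A, by 0.77 (SE 0.20). The mean of the defining myoepithelial list was also higher in the null group, from 8.45 to 8.82 on the null arrays and from 8.19 to 8.36 on the wild-type arrays. Of its 9 genes 7 were positive, led by Krt14 at 0.89 (SE 0.20) and Krt17 at 0.82. These 2 keratin genes were above background on 5 and 4 arrays. The brighter markers Acta2, Tagln and Cnn1 differed by -0.050, -0.041 and 0.062. Fibroblast list means overlapped, from 10.71 to 11.43 and from 10.53 to 11.69, with 3 of 8 genes higher at an unadjusted p under 0.05, and the macrophage means were lower, as given above. The part of these cells in the cyclic AMP genes was not tested.

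Among 12 measured genes that end receptor signalling, 11 were above background, and 2 were higher and 2 lower in the null group at an unadjusted p under 0.05 (6.28% and 4.27% of all genes), with 0 passing over all genes. Rgs16, a GTPase-activating protein for Gi and Gq subunits, read 10.77, 10.88 and 10.88 on the null arrays and 10.25, 10.23 and 10.15 on the wild-type arrays. These groups were far apart for their spread, and the difference was 0.64 (SE 0.10, adjusted p = 0.194 with limma). Rgs2, which acts mainly on Gq, read 7.86, 8.76 and 7.21 on the null arrays and 9.11, 9.16 and 9.60 on the wild-type arrays, a difference of -1.35 (SE 0.36), or -0.74 with its probe sets averaged. Its lowest signal stood on the third null array, as for the macrophage list mean given above, and the part of these cells was not tested. Grk5, a kinase that phosphorylates active receptors, differed by 0.48 (SE 0.14).

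Enzymes that clear the ligands were measured for 6 of 9 genes, 4 of them above background. Maob, a monoamine oxidase, read 6.24, 6.59 and 6.66 on the null arrays and 5.63, 6.25 and 5.85 on the wild-type arrays, a difference of 0.59 (SE 0.19, adjusted p = 0.379 with limma). The lowest null and the highest wild-type signal nearly coincided. Maob was 1 of the 6 with an unadjusted p under 0.05, against 10.6% of all genes, and without the third null array 0 were. Mme, which encodes neprilysin, a peptidase that degrades VIP, differed by -0.51 (SE 0.34), and Ache, which encodes acetylcholinesterase, by 0.010 (SE 0.15).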

How the data were processed

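Per the submitters' processing notes the authors used Partek and RMA, and they deposited log2 signals of 41345 probe sets on each of 6 arrays. That scale follows from their range (1.83 to 14.23). Software versions and the genome build: not given in the sources used here. RMA compresses differences of dim probe sets. Symbols came from the platform annotation, where 23521 probe sets had exactly 1, and the brightest probe set was kept for each of 22180 genes. Groups and replicate numbers came from the sample titles. Titles of the null group read TSP1-1, whereas its source names and strain read TSP1 null, and these were taken as the same group. TSP1 null and wild type were compared with limma 3.58.1 in R 4.3.3 (lmFit, eBayes, all arrays, no covariates, two-sided, Benjamini-Hochberg over all genes, threshold 0.05). The background rule used the 95th percentile of olfactory receptor genes. Arrays have no sequencing depth, and their number limits the precision. The procedure was tested on simulated data of 22180 genes, where it recovered 66.5% of genes changed 2-fold. The simulated noise followed limma's own model, independently for each gene, and dim genes received the full change. The share may therefore be too high for these arrays. Named genes were the receptors, Thbs1, set markers, up to 3 genes of smallest p above background per pathway list, and the 3 most alike per receptor. Other genes named were singled out after their values were seen. The receptors and lists were chosen with earlier results of these data known. Alternatives were renormalization, centring, dim-gene filtering, averaged or all probe sets, other priors, weights, a replicate block, an ordinary linear model and leaving out each array. Figures used Python 3.11.15 and matplotlib 3.10.9. Promoters came from RefSeq (GRCm38.p6).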

Additional observations from a re-analysis of the deposited data

How the results depend on the processing

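No receptor gene passed in any of the 15 alternative fits. Of 116 receptor values in them 97 kept the sign of the reported difference and 19 turned. All had adjusted limma or linear-model p-values between 0.469 and 0.999, and the cause of each turn was not tested. Many of the 97 could not turn. Other priors, the replicate block, the ordinary linear model, dim-gene filtering and testing every probe set leave the difference itself unchanged. Averaging probe sets changed it only for Chrm1. The 97 therefore overstate how stable the signs are. Chrm4 turned to 0.0080 with quantile normalization, 0.011 with median centring and 0.050 with array weights. Array weights also gave 0.028 for Oxtr and -0.0057 for Vipr1, and averaging probe sets gave -0.035 for Chrm1. With 1 array left out, differences ran from -0.21 to 0.077 for Oxtr, -0.14 to 0.12 for Chrm3, -0.11 to 0.10 for Chrm4, -0.36 to 0.23 for Adra1b and -0.091 to 0.18 for Vipr1. Those of Chrm1, Chrm2 and Vipr2 kept their sign. They ran from -0.78 to 0.62 for Adcyap1r1 and from -0.11 to 0.13 for Ache. Alternatives for genes outside the receptor list were added after the data were seen. Over all genes the count of calls was 2 with every probe set tested and ran from 0 to 34 with 1 array left out (34 without the second null and 1 without the first wild-type array), and 0 receptor genes were among them. The count of receptors above background was 0 with the 99th percentile, 2 with vomeronasal genes and 4 with any single array left out. Shares of all genes in these settings were not computed.

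Whether the replicate numbers pair the arrays is not known. Deviations of same-numbered arrays correlated at -0.14, 0.18 and -0.16, and those of differently numbered arrays between -0.18 and 0.26. These deviations are from means of 3 arrays, so the values cannot decide it. With the number as a block 0 receptor genes were called, and Oxtr had -0.046 (SE 0.17). The block lowered the SE of Oxtr, Chrm1, Adra1b (from 0.30 to 0.16) and Vipr1. It raised that of Chrm2, Chrm3 (from 0.17 to 0.20), Chrm4 and Vipr2. Signals near background limit what Chrm2, Chrm3, Chrm4 and Vipr1 can show.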
